A study of Mus musculus with 6 samples.

Results

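The keratin genes (Krt) and the keratin-associated protein genes (Krtap) were followed through 2 histone marks in mouse blood progenitors. They were chosen by name alone, as every gene whose symbol is Krt followed by a digit or begins with Krtap, and they numbered 104 of the 24012 genes counted. Of these, 52 were keratins and 52 were keratin-associated genes. The keratins comprised 28 type I genes, in the chromosome 11 cluster with Krt18 apart on chromosome 15, and 24 type II genes in the chromosome 15 cluster. Of the keratin-associated genes, 21 lay on chromosome 11 inside the type I cluster, 23 on chromosome 16, 5 on chromosome 7 and 3 on chromosome 10. One member, Krt25, was already known to have more H3K79me3 reads in both mutants when the genes were chosen, and the question was whether that pattern was shared by the rest.

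Chromatin immunoprecipitation and sequencing (ChIP-seq) measured di- and trimethylation of lysine 79 of histone H3 (H3K79me2 and H3K79me3). All 3 groups of cells were primary mouse bone marrow progenitors carrying a retrovirus that expresses MLL-AF9, and they differed in the form of the fusion: WT, D544R or D546R. There was no group without MLL-AF9, and the sources used here do not give the age, sex or strain of the mice or the number of cultures. Each genotype gave 1 library for each mark, 6 in all, so the groups cannot be tested against each other, and all intervals cover counting error only. Library totals ran from 3558329 to 5993741 gene-region counts in H3K79me2 and from 5207395 to 6652571 in H3K79me3. The D546R libraries had the most short regions with no read: 13.0% against 1.83% in WT and 2.44% in D544R for H3K79me2, and 33.5% against 17.6% and 16.2% for H3K79me3.

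Keratins are the intermediate filament proteins of epithelial cells. A type I and a type II keratin pair to build each filament, and different pairs mark simple epithelia, the basal and upper layers of the epidermis, and the layers of the hair follicle. Keratin-associated proteins are small proteins that embed and cross-link the keratin filaments of the hair shaft. Blood progenitors make little of any of them. H3K79 methylation is placed by DOT1L over the transcribed part of active genes, and AF9 is one of the proteins that bind DOT1L.

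Many promoters of these genes share a run of letters near the start. RefSeq promoter windows (GRCm38.p6, from 250 bases before to 50 bases after each start) were found for 81 of the 104 genes by symbol and chromosome, as 82 windows. The letters TATAAA, searched on the gene's own strand in the 50 bases before the start, stood in 45 of the 82 windows (54.9%), against 2.63% of all 32851 promoters. Among windows of keratin-associated genes the share was 65.2%. Type I keratins had it in 54.5% of windows and type II keratins in 21.4%. Olfactory receptor genes, another large family that blood cells do not use, had it in 2.9%. In 36 of the 45 windows the first letter lay 33 to 25 bases before the start. Searched on either strand over the whole window, TATAAA was in 69.5% of the keratin and keratin-associated windows, 40.9% of those of olfactory receptors and 13.6% of all. Windows with at least 10 CG pairs made up 4.88% of the members' windows, 0.215% of those of olfactory receptors and 43.5% of all. A match is only a run of letters, and no factor was measured here. These 4 windows are shown because Krt25 and its neighbour Krt27 went opposite ways in H3K79me3 in D546R, and because Krtap4-7 and Krtap21-1 had the most H3K79me3 reads of the keratin-associated genes in that library. Capitals mark TATAAA where it lies in the 50 bases before the start.
Krt25: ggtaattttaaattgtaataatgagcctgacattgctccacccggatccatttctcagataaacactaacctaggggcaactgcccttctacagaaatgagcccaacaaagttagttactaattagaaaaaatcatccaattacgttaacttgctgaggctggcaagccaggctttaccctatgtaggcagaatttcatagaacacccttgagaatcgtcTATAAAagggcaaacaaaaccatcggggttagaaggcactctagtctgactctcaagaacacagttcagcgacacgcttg
Krt27: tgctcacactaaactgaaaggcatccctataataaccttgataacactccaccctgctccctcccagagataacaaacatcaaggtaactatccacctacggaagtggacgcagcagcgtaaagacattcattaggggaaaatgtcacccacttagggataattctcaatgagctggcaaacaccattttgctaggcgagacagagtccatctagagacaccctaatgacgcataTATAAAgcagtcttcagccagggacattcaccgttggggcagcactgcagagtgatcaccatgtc
Krtap4-7: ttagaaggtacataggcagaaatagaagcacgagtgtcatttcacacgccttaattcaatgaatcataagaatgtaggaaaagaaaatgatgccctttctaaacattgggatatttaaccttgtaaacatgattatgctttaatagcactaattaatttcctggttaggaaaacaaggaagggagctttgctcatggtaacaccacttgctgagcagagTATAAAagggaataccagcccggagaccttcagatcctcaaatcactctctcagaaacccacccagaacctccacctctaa
Krtap21-1: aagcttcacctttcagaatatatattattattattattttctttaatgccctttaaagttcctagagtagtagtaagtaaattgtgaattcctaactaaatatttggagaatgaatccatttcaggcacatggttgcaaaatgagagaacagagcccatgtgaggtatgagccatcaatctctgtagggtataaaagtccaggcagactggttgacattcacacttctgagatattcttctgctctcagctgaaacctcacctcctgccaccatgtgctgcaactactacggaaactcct
The Krt25 window is chr11:99322902-99323201, that of Krt27 chr11:99351069-99351368, that of Krtap4-7 chr11:99644040-99644339 and that of Krtap21-1 chr16:89403725-89404024, all on the minus strand. Their capitals begin 30, 15 and 31 bases before the start in Krt25, Krt27 and Krtap4-7. In Krtap21-1 the same letters begin 61 bases before the annotated start, outside the searched stretch, and stay in lower case. Of the 10 genes higher in both mutants in H3K79me3, 7 of 10 matched windows held TATAAA, and of the 11 lower in both, 3 of 6 matched windows held it.

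Keratin and keratin-associated regions held few reads of either mark, and the families differed in level. They held 0.0329% to 0.0719% of each library's counts. Per kilobase, their median level in H3K79me2 was 0.695 of the median gene's in WT, 0.695 in D544R and 0.523 in D546R. In H3K79me3 it was 0.747, 0.674 and 0.718. Olfactory receptor genes lay at 0.664 to 0.797 over the 6 libraries. A list of 16 hematopoietic markers, by contrast, had a median of 3.98, 4.74 and 4.67 for H3K79me2, and of 2.08, 1.64 and 2.24 for H3K79me3. The markers varied in H3K79me2: Ptprc, the blood cell surface phosphatase CD45, reached 7.42, 6.73 and 9.95. Csf1r, at 0.982, 1.03 and 1.34, and Cd34, at 1.1, 1.03 and 1.07, lay near the median gene. A list of 8 epithelial surface markers, whose presence would point to epithelial cells, lay between 0.544 and 0.838 in every library. The pooled H3K79me3 median hides a difference between the families: keratins stood at 0.902, 0.895 and 0.767 of the median gene (type I at 0.973, 0.98 and 0.845), near that gene's level, and keratin-associated genes at 0.337, 0.486 and 0.536. Other genes shorter than 4 kb, leaving out olfactory receptors, stood at 0.611, 0.635 and 0.309, so in D546R the keratin-associated median was above theirs. In H3K79me2 keratins stood at 0.73, 0.739 and 0.541 and keratin-associated genes at 0.58, 0.657 and 0.504. The other genes shorter than 4 kb stood at 0.871, 0.893 and 0.865 there. Read density is not a measure of transcription.

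The 2 families differed in size and depth. A counted region starts 2 kb before the transcription start and ends at the transcript end, so the median keratin region was 8.62 kb, while the median keratin-associated region was 2.82 kb and mostly upstream sequence. Median raw counts of keratins were 28, 18 and 9.5 in H3K79me2 and 34.5, 32.0 and 38.5 in H3K79me3. Keratin-associated genes had 7, 5 and 3 in H3K79me2 and 4.5, 5.5 and 9 in H3K79me3. Genes with no read numbered 5, 5 and 11 of 104 in H3K79me2 and 15, 19 and 22 in H3K79me3. In H3K79me3, 28.8%, 36.5% and 36.5% of keratin-associated genes had no read, against 21.3%, 20.9% and 39.4% of other genes shorter than 4 kb. In H3K79me2 the shares were 9.62%, 9.62% and 19.2%, against 3.47%, 4.32% and 17.1%. If reads are independent, a count of 0 allows up to 3 counts in that library. Where reads come in clumps it allows more, so fold bounds against this floor hold for independent reads only. The spread over keratin-associated genes was far wider in H3K79me3: the variance divided by the mean was 3.93 to 4.04 in the H3K79me2 libraries, and 21.8, 22.6 and 47.6 in WT, D544R and D546R for H3K79me3. The highest keratin-associated count was 23 in any H3K79me2 library, while 3, 2 and 9 genes were over 50 in H3K79me3.

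**Figure D1:**
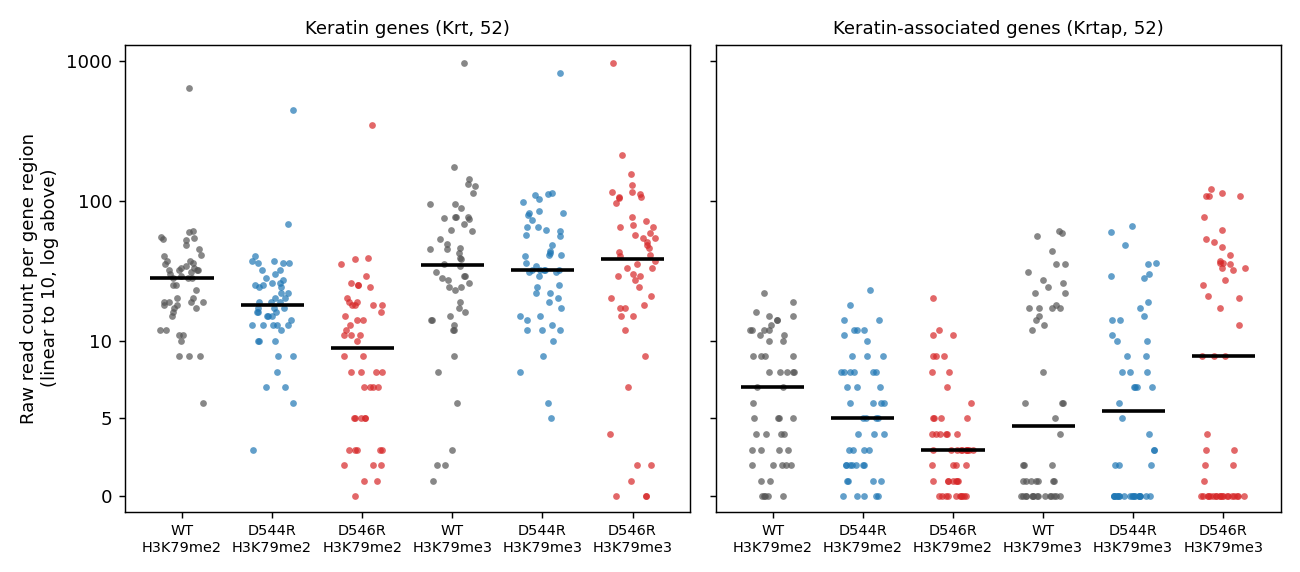
Raw read counts of the 52 keratin regions (left) and 52 keratin-associated regions (right) in each of the 6 libraries, on an axis that is linear to 10 and logarithmic above; each point is a gene and each bar the median. The single high point in every keratin column is Krt85 (346 to 960 counts), and keratin-associated genes spread from 0 to 122 in D546R H3K79me3 but from 0 to 20 in D546R H3K79me2.

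Krt85, a type II hair keratin, stood apart because its listed region was 177.8 kb long. It overlapped 10 other regions, among them Krt84, Krt82, Krt75, Krt6b and Krt6a, and held 20.1% to 29.6% of the members' counts. Its H3K79me2 log2 ratios to WT were -0.04 (D544R) and -0.06 (D546R), and its H3K79me3 ratios were -0.05 and -0.24. In all, 15 of the 104 regions overlapped another region and 10 overlapped another member, so sums over members leave the latter out.

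Ratios were formed from counts scaled by size factors within a mark and are given as log2 values with a prior count of 0.5. A gene was called at 2-fold or more from WT if 0 lay outside its counting interval and if normalised counts averaged 10 or more over the mark's 3 libraries. More short regions had no read than independent reads would leave. If every such region could be reached and reads came in clumps, that share corresponds to 4.05, 3.26 and 4.78 reads per fragment in H3K79me2 (WT, D544R, D546R) and to 9.73, 8.12 and 18.6 in H3K79me3; duplicates and mappability were not examined. A second 95% interval, the fragment interval, divides the counts by these numbers first. The filter was passed by 44 of 104 members in H3K79me2, of which 2 were keratin-associated, and by 83 in H3K79me3, 51 keratins and 32 keratin-associated genes. All comparisons with WT share the same WT library of the mark.

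Krt25, a type I keratin of the inner root sheath of the hair follicle (NM_133730, mm9 chr11:99175157-99184255, a 9.1 kb region overlapping no other), had 13 H3K79me3 reads in WT, 98 in D544R and 212 in D546R. The WT count was the low one, and D546R was the highest. Per kilobase it stood at 0.31 of the median gene in WT, 2.55 in D544R and 4.13 in D546R. The log2 ratio to WT was 3.04 in D544R (fragment interval 0.59 to 7.38) and 3.73 in D546R (1.27 to 8.08), while D546R against D544R was 0.69 (-0.62 to 1.99). In H3K79me2 it had 23, 36 and 19 reads. The ratios there were 1.09 in D544R (-0.47 to 2.88) and 0.53 in D546R (-1.75 to 2.66). Krt25 was not at the top of its families: by H3K79me3 ratio it ranked 8 of 83 members in D544R and 13 of 83 in D546R, and 731 and 698 of 21777 genes. Members above it included genes with no WT read, such as Krtap4-2 in both mutants and Krtap4-7 in D546R. The ratios of such genes depend on the prior count, so these ranks are uncertain.

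None of the 3 regions on either side of Krt25 was called at least 2-fold higher in H3K79me3 in either mutant. Its nearest neighbours on one side are Krt24, Krt222 (a short keratin-like gene) and Smarce1, a chromatin remodelling subunit expressed in most cells. On the other side lie Krt26, Krt27 and Krt28, which like Krt25 serve the inner root sheath. Krt24 had 31, 48 and 15 H3K79me3 reads in WT, D544R and D546R, and its D544R ratio was 0.79, with a counting interval above 0. Krt26 had 74, 32 and 106, so it was lowest in D544R. Krt27 had 14, 25 and 2, with a D544R ratio of 0.98 (counting interval 0.01 to 2.07), and was lowest in D546R. Krt28 had 77, 81 and 116, in the same order as Krt25, with log2 ratios of 0.24 and 0.34. Krt222 had 128, 34 and 37 and was lower in both mutants (-1.73 and -2.02). Smarce1 had 263, 193 and 237. Over all neighbouring pairs of members no more than 100 kb apart, 31 of 74 had ratios of the same sign in D544R (41.9%) and 42 of 74 in D546R (56.8%), against 49.9% of pairs over all genes in each mutant.

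**Figure D2:**
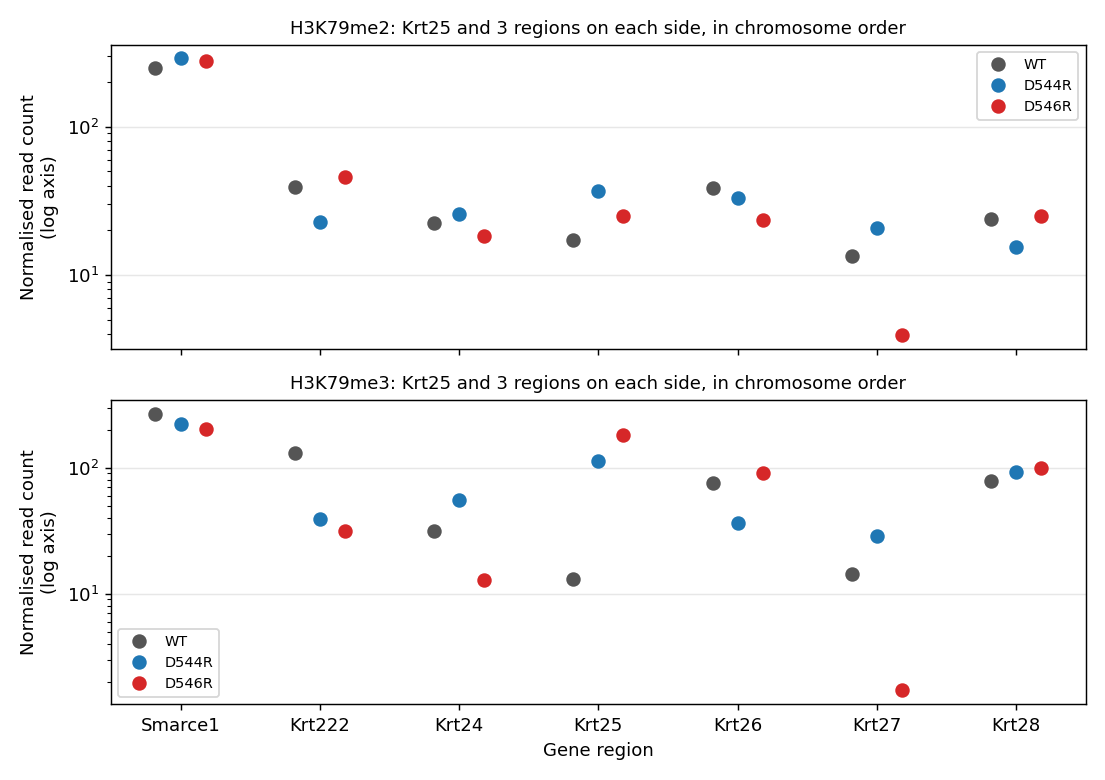
Normalised read counts (log axis) of Krt25 and the 3 regions on each side, in chromosome order, in WT, D544R and D546R, for H3K79me2 (top) and H3K79me3 (bottom); each point is 1 library. In H3K79me3 Krt25 goes from 13.2 in WT to 112.4 and 181.4 in the mutants, while Krt28 goes from 78.4 to 92.9 and 99.3, Krt24 and Krt26 have other orders, Krt222 lies lower in both mutants and Krt27 is at 1.71 in D546R.

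The pattern of Krt25 was shared by a minority of members in H3K79me3. In D544R, 18 of 83 members were called higher (21.7%) and 24 lower (28.9%), where the same rule called 13.4% and 12.4% of all genes. In D546R, 27 were higher (32.5%) and 25 lower (30.1%), against 17.8% and 18.2%. Of those 27, 13 had passed the filter only through their D546R count. The excess over all genes went in both directions and was close to that of other short regions. Genes shorter than 15 kb were called higher or lower in 22.8% and 22.8% of cases in D544R and in 29.0% and 28.9% in D546R. Olfactory receptor genes were called in 30.5% and 30.6%, and in 33.6% and 33.1%. Median log2 ratios of the members were -0.07 in D544R and -0.07 in D546R, beside -0.01 and 0.00 over all genes, and -0.08 for D546R against D544R. These medians were the same with genes at 0 in 1 library set to their lowest ratio for independent reads.

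Members higher in both mutants numbered 10 of 83 (12.0%), against 7.11% of all genes, 12.5% of genes shorter than 15 kb and 16.1% of olfactory receptor genes. Another 11 members (13.3%) were lower in both, against 4.91% of all genes, and 7 went opposite ways, against 2.7%. Lower in both were 9.83% of genes shorter than 15 kb, 15.7% of olfactory receptor genes and 15.3% of other genes shorter than 4 kb, and 66 of 765 olfactory receptor genes went opposite ways. The 10 were Krt25, Krt10, Krt40, Krt32, Krt9, Krt76, Krtap4-2, Krtap14, Krtap19-1 and Krtap5-2. Krt25 was among them by the choice of the question, and without it 9 of 82 were higher in both. By the fragment interval Krt25 was called in both mutants and 0 of the other 82 members were, where that stricter rule called 0.569% of all genes in both.

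The members called by the fragment interval in 1 mutant were few. In D544R they were Krt25, Krt32 and Krt76 among the higher and Krt222 among the lower (all genes 3.09% and 1.21%). In D546R they were Krt25, Krtap4-7, Krtap21-1, Krtap6-2 and Krtap5-3 among the higher and Krt39 and Krt83 among the lower (all genes 4.17% and 3.69%). By this estimate most single-gene ratios in these short regions rest on few fragments.

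**Figure D3:**
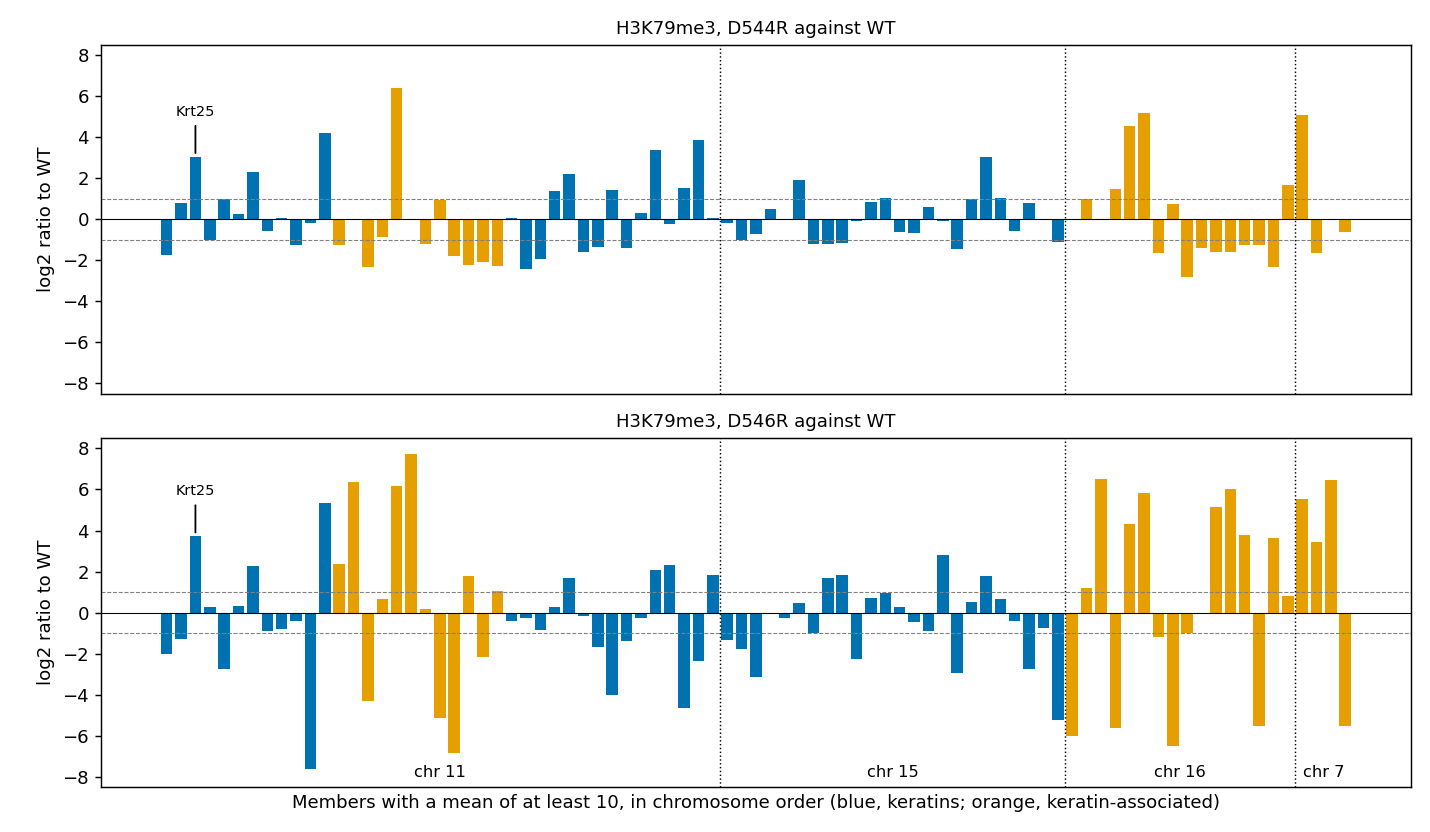
Log2 ratio to WT in H3K79me3 for the 83 members that passed the filter, in chromosome order, for D544R (top) and D546R (bottom); blue bars are keratins, orange bars keratin-associated genes, dashed lines mark 2-fold, and bars of genes with no read in 1 library depend on the prior count. Bars above and below 0 are mixed along each cluster, and the Krt25 bar (3.04 and 3.73) has no equal beside it.

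Among type I keratins in H3K79me3, 9 of 28 were called higher (32.1%) and 9 lower (32.1%) in D544R. In D546R 7 of 28 were higher and 9 lower (32.1%). Genes shorter than 15 kb had 22.8% and 22.8% in D544R and 29.0% and 28.9% in D546R. All genes had 13.4% and 12.4%, and 17.8% and 18.2%. The type I share called higher in D546R was below that of genes shorter than 15 kb, and the other type I shares were above. Krt40, a hair keratin, had 1, 24 and 71 reads in WT, D544R and D546R, with ratios of 4.21 (counting interval 2.14 to 10.12) and 5.33 (3.37 to 11.22). Krt10, the suprabasal epidermal partner of Krt1, had 8, 36 and 48, a ratio of 2.27 in each mutant. Krt32, a hair cuticle keratin, had 27, 113 and 105 (2.22 and 1.69). Krt9, of palm and sole skin, had 3, 32 and 17. These 4 were named as genes called higher than WT in both mutants, which by itself makes WT their lowest library. Another 4 type I genes, Krt222, Krt36, Krt15 and Krt18, were lower in both mutants, and others were called in 1 mutant, in opposite ways or not at all. Krt14, of the basal epidermis, had 16, 12 and 96. Krt39, a hair keratin, had 95, 73 and 0. For independent reads only, that is at least 37.7-fold lower in D546R, against a floor of 3 counts in that library. Krt13, of mucosal epithelia, had 35, 84 and 2. Krt18, of simple epithelia, had 49, 20 and 1 (-1.10 and -5.22, the latter with a counting interval of -11.20 to -3.32). Krt19, of ducts and simple epithelia, had 29, 32 and 29, with ratios of 0.31 and -0.25. Krt33b, a hair keratin, had 76, 12 and 76 (-2.45 in D544R).

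Among type II keratins in H3K79me3, 3 of 23 were higher (13.0%) and 5 lower (21.7%) in D544R. In D546R 4 were higher (17.4%) and 6 lower (26.1%). Each share was below that of genes shorter than 15 kb. Krt76, of the oral and suprabasal epithelium, had 14, 103 and 59 reads, with ratios of 3.01 (fragment interval 0.64 to 7.10) and 1.79 (-1.46 to 6.20). It was the only type II keratin higher in both mutants. Krt75 had 34, 13 and 130 and Krt6b 26, 10 and 111, and both were called lower in D544R and higher in D546R. The regions of both overlap that of Krt85. Krt2 had the highest D546R ratio of the type II keratins, 2.82, with -0.08 in D544R. Krt1, the partner of Krt10, went the other way from Krt10, with 29, 9 and 4 reads (-1.47 and -2.94). Krt7, of glandular epithelia, had 95, 41 and 33 (-1.03 and -1.76). Krt83, a hair keratin, had 113, 61 and 15, and its D546R ratio was -3.12 (-9.69 to -0.19). Krt8, Krt5 and Krt73 were not called in either mutant. Krt8, the simple epithelial partner of Krt18, had 17, 15 and 12. Krt5, the basal partner of Krt14, had 12, 19 and 24. Krt73, of the inner root sheath, had 46, 62 and 29. Krt71, also of the inner root sheath and a pairing partner of Krt25, had 23, 42 and 54, with ratios of 1.03 (called) and 0.97 (not called). Of the filament pairs, Krt1 and Krt10 were called in opposite directions in both mutants, and in Krt8 with Krt18 and Krt5 with Krt14 no more than 1 partner was called. Summed over the 44 type I and type II keratins that overlap no other member, the H3K79me3 ratios were 0.03 in D544R (fragment interval -0.24 to 0.30) and -0.27 in D546R (-0.61 to 0.06). These sums leave out Krt85 and the 5 members that its long region overlaps. Krt75 and Krt6b, both higher in D546R, are among those 5, so the sums do not cover all keratins.

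Keratin-associated genes as a family had more H3K79me3 reads in D546R. The 50 that overlap no other member summed to 569 reads in WT, 520 in D544R and 1289 in D546R. The D546R sum was the high one; D544R and WT were close. The log2 ratio of the sums was 0.93 in D546R (fragment interval 0.41 to 1.46) and 0.04 in D544R (-0.49 to 0.58). Scaled to olfactory receptor genes the D546R value was 0.88. By cluster it was 0.97 on chromosome 11 (528 reads against 227), 0.91 on chromosome 16 (572 against 256) and 0.92 on chromosome 7 (187 against 83). The fragment intervals were 0.12 to 1.82, 0.11 to 1.72 and -0.55 to 2.43, so that of chromosome 7 included 0. The 3 genes on chromosome 10 had 2 reads in D546R and 3 in WT, too few for a ratio. In D544R the clusters differed in sign, with -0.57 on chromosome 11, 0.52 on chromosome 16 and -0.32 on chromosome 7, with fragment intervals that included 0. The sum over other genes shorter than 4 kb, leaving out olfactory receptors, had a D546R ratio of -0.06, and the olfactory receptors had 0.05. The D546R library also had the most short regions at 0 (33.5%) and the most reads per fragment (18.6), and the part of these in the higher sum was not tested. In H3K79me2 the family's sums were 355, 302 and 168 reads, with ratios of 0.24 (-0.20 to 0.67) in D544R and -0.26 (-0.87 to 0.32) in D546R.

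**Figure D4:**
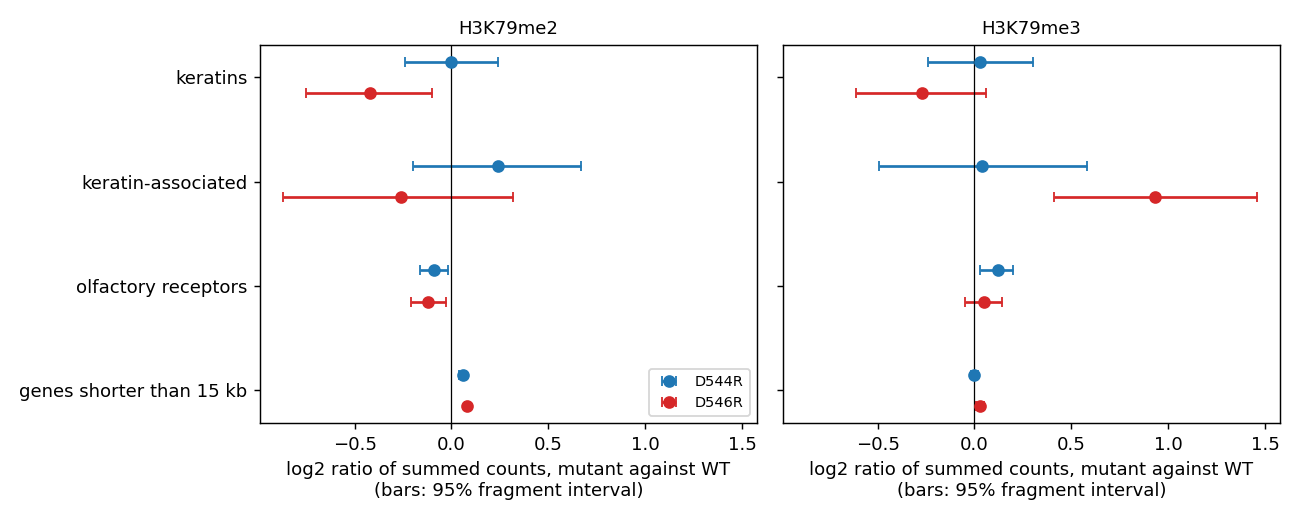
Log2 ratio to WT of summed counts in H3K79me2 (left) and H3K79me3 (right) for keratins, keratin-associated genes, olfactory receptor genes and all genes shorter than 15 kb; blue points are D544R, red points D546R, and bars are 95% fragment intervals, which do not cover variation between cultures. The D546R point of the keratin-associated genes in H3K79me3 lies at 0.93, and that of the keratins in H3K79me2 at -0.42. Keratin and keratin-associated sums leave out members that overlap another member.

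The higher sum of the family was made of genes going both ways. Of 52 keratin-associated genes, 32 passed the filter, 13 of them only through their D546R count. In D546R 16 were called higher, 12 of which had passed in that way, so this number is partly set by the filter. Another 10 were lower, while in D544R 6 were higher and 10 lower. The shares called higher and lower were 50.0% and 31.2% in D546R and 18.8% and 31.2% in D544R. Other genes shorter than 4 kb had 31.1% and 34.7% in D546R and 25.2% and 29.6% in D544R. All genes had 17.8% and 18.2%, and 13.4% and 12.4%. The 5 with the most reads in D546R, Krtap4-7, Krtap21-1, Krtap3-3, Krtap5-3 and Krtap6-2, held 43.1% of the family's reads there, and the top 5 of the WT and D544R libraries held 40.5% and 45.5%. Krtap4-7 had 0 reads in WT, 0 in D544R and 122 in D546R. For independent reads only, that is at least 34.2-fold higher than WT, against a floor of 3 counts. Krtap21-1 had 1, 0 and 113, a ratio of 6.00 (counting interval 4.06 to 11.89). Krtap6-2 had 6, 2 and 107, and Krtap5-3 had 8, 2 and 108, with ratios of 3.80 and 3.43. Krtap3-3 had 17, 6 and 108. None of these 5 was called higher in D544R. Krtap13-1, Krtap5-1 and Krtap3-2 likewise had no read in WT or D544R and 53, 51 and 47 in D546R.

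Other keratin-associated genes with reads in WT had none in D546R. Krtap9-1 had 56, 14 and 0, Krtap19-9b had 44, 66 and 0, Krtap24-1 had 31, 28 and 0, and Krtap13 had 24, 60 and 0. Against the floor, for independent reads only, these are at least 22.2-fold, 17.5-fold, 12.3-fold and 9.52-fold lower than WT. By the fragment interval no keratin-associated gene was called lower in D546R. Krtap19-9b had the highest level per kilobase of the family over the 3 libraries. In D544R the highest ratios to WT were those of Krtap4-2 (0, 36 and 41 reads), Krtap19-1 (0, 15 and 33), Krtap5-2 (0, 14 and 27) and Krtap14 (1, 30 and 35). All 4 were higher in D546R as well. Against the same floor, for independent reads only, Krtap4-2 was at least 13.5-fold higher in D544R and 11.5-fold in D546R. The lowest in D544R were Krtap16-3 (35, 4 and 21), Krtap1-5 (59, 10 and 3), Krtap17-1 (13, 2 and 33) and Krtap31-1 (18, 3 and 76). The last 2 were called higher in D546R. Krtap genes of 1 subfamily, such as Krtap4-2 to Krtap4-16 or Krtap6-1, Krtap6-2 and Krtap6-5, and the keratin pairs Krt6a and Krt6b or Krt33a and Krt33b, are near copies of each other. The sources used here do not say how reads that fit several copies were assigned, so the split between such genes is uncertain.

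In H3K79me2 the keratins were lower in D546R. Of 42 keratins that passed the filter, 29 had a ratio below 0, with a median of -0.64, while 10055 of all 20308 genes were below 0 with a median of 0.01. Summed keratins that overlap no other member had 1239 reads in WT, 895 in D544R and 525 in D546R, and the scaled ratio was 0.00 in D544R (fragment interval -0.24 to 0.24) and -0.42 in D546R (-0.75 to -0.10). Type I and type II keratins gave nearly the same D546R value, -0.43 and -0.41. Scaled to olfactory receptor genes, the ratio of the summed keratins in D546R was -0.30. The D546R library also had more short regions at 0 (13.0%) than WT (1.83%), and the part of this in the lower sum was not tested. Over all members the median was -0.04 in D544R, -0.56 in D546R and -0.46 for D546R against D544R. Olfactory receptor genes had a D546R median of -0.10, and the hematopoietic list had 0.38.

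By single genes, 5 of 44 members were called higher in D544R (11.4%) and 3 lower (6.82%) in H3K79me2, against 1.9% and 1.06% of all genes and 4.39% and 2.5% of genes shorter than 15 kb. In D546R, 2 were higher (4.55%) and 9 lower (20.5%), against 4.15% and 7.16% of all genes and 8.81% and 12.6% of short genes. Olfactory receptor genes had 6.36% higher and 8.18% lower in D544R, and 15.8% and 15.8% in D546R. With olfactory receptor genes as the reference the 9 became 5. By the fragment interval 1 member was called, Krt76 (lower in D546R), where all genes gave 0.158% higher and 0.0492% lower in D544R and 1.07% and 0.975% in D546R.

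Krt76 had 45 H3K79me2 reads in WT, 26 in D544R and 1 in D546R, a D546R ratio of -4.23 (counting interval -10.01 to -2.12). Krt10 had 33, 13 and 2 (-3.00, counting interval -6.33 to -1.26). Krt71 had 32, 28 and 3 (-2.45, -4.95 to -0.92), and Krt5 had 28, 19 and 3 (-2.27, -4.77 to -0.71). Krt17, an injury and appendage keratin, had 34, 10 and 5 (-1.87). In each of these the D546R library was the lowest. Krt8 (29, 17 and 7; -1.19), Krt74, Krt84 and Krt12 completed the 9. The 2 that were higher were Krtap1-5 (9, 5 and 20; 1.89) and Krt78 (20, 17 and 25; 1.11). In D544R the higher ones were Krt19 (6, 20 and 8; 2.09), Krt40 (11, 30 and 2; 1.85), Krtap24-1 (12, 23 and 11; 1.36), Krt25 (1.09) and Krt39 (18, 27 and 5; 1.03). The lower ones were Krt20, of intestinal and urinary epithelium (61, 17 and 18; -1.35), Krt17 (-1.26) and Krt86, a hair keratin (40, 13 and 14; -1.12). Krt6a had the most H3K79me2 reads per kilobase, and it showed 36, 37 and 24 reads with ratios of 0.50 and 0.23.

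The ratios of the 2 marks showed little relation in these genes. Of 43 members that passed the filter in both marks, 24 had the same sign in D544R (55.8%) and 21 in D546R (48.8%), beside 51.2% and 50.3% over all genes. Pearson's r across these genes was 0.12 and -0.24, a description over genes that share libraries. In D546R no member was called in the same direction in both marks and 4 were called in opposite directions: Krt10, Krt76, Krt78 and Krtap1-5. Of 249 olfactory receptor genes, 23 were opposite, 15 higher in both marks and 11 lower in both. Over 19657 genes these numbers were 543, 203 and 370. In D544R Krt25 and Krt40 were higher in both marks and Krt17 was opposite. Olfactory receptor genes had 4 higher in both and 9 opposite there, and all genes 92 and 113.

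Genes were also ranked by how close their pattern lay to that of Krt25. By the distance over its 4 ratios (both mutants, both marks), the nearest of 42 members were Krt9 at 2.65, Krt40 at 2.92, Krt2 at 3.42, Krt4 at 3.69 and Krt77 at 3.98. Among 19656 genes of the whole table, a far larger pool in which nearer genes are to be found by number alone, the nearest were Fbxl8 at 0.44, Pklr at 0.67, Maf1 at 0.68, Cldn6 at 0.70 and Map1lc3b at 0.72. Fbxl8 had H3K79me3 ratios of 3.31 and 3.94 and H3K79me2 ratios of 1.05 and 0.79.

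Genes that work with keratins were read from 6 lists, 94 of whose 97 genes were in the table, and each was counted by the same 2-fold rule. In H3K79me3 the lists together had 6 higher and 13 lower of 86 genes in D544R (6.98% and 15.1%, against 13.4% and 12.4% of all genes), and 14 higher and 10 lower in D546R (16.3% and 11.6%, against 17.8% and 18.2%). Of 19 desmosome and filament linker genes, 2 were higher and 3 lower in H3K79me3 in D544R, and 2 higher and 1 lower in D546R. Their median log2 ratios were -0.20 and 0.18. Among them Pkp3, a desmosomal plaque protein, had 0, 26 and 47 reads and was higher in both mutants, and Plec, which links filaments to other structures, had 124, 26 and 320 and went opposite ways. Of 20 cornified envelope and hair shaft genes, 1 was higher and 3 lower in D544R and 5 higher and 4 lower in D546R. Their medians were -0.19 and 0.04. Tchhl1 had 1, 4 and 41 reads and Klk7, a protease of skin shedding, 19, 10 and 0. Of 11 regulators of epithelial and hair keratins, 3 were higher and 1 lower in D544R and 1 higher and 1 lower in D546R. Their medians were 0.23 and 0.40. Klf4, a regulator of the skin barrier, had 5, 22 and 31 and was the one higher in both, while Ovol1 had 9, 81 and 8 and Foxn1, which drives hair keratin genes, 164, 126 and 58. Of 14 other intermediate filament genes, none was higher and 2 were lower in D544R, and 4 were higher and 2 lower in D546R. Their medians were 0.06 and 0.20. Nes had 18, 5 and 75 reads and Nefl 31, 5 and 77, low in D544R and high in D546R.

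In H3K79me2 the 6 lists together had 1 higher and 4 lower of 81 genes in D544R (1.23% and 4.94%, against 1.9% and 1.06% of all genes), and 6 higher and 6 lower in D546R (7.41% each, against 4.15% and 7.16%). Their medians ran from -0.15 (other intermediate filament genes) to 0.14 (epithelial surface markers) in D544R and from -0.37 (other intermediate filament genes) to 0.38 (hematopoietic markers) in D546R. The linkers had none in D544R and 1 in each direction in D546R, Perp (66, 64 and 88 reads) and Ppl (163, 121 and 41). The cornified envelope list had 2 lower in D544R, Casp14 (35, 5 and 15) and Tchhl1 (38, 10 and 19), and 1 in each direction in D546R. Other intermediate filament genes had 2 lower in D544R, Gfap (12, 1 and 23) and Des (33, 11 and 33), and 1 higher and 2 lower in D546R, among them Nes (59, 34 and 10). Hematopoietic markers had none in D544R and 1 in each direction in D546R, Cebpe (71, 54 and 94) and Elane (50, 36 and 10). Msx2, a regulator in hair and skin (8, 24 and 14), was higher in both mutants, and Hoxc13, a hair keratin regulator (12, 12 and 18), was the other regulator higher in D546R. The epithelial surface markers had none in D544R and 1 lower in D546R, Cldn4 (18, 20 and 1). In H3K79me3 Epcam, the epithelial adhesion molecule, had 58, 48 and 178 reads and was higher in D546R, while Cldn7 had 41, 16 and 0 and was lower in both mutants. The medians of the surface markers were -0.35 and -0.01. Of the 16 hematopoietic markers, none was higher and 3 were lower in D544R in H3K79me3, and 1 was higher and 1 lower in D546R (medians -0.31 and 0.09). Cebpa, a myeloid transcription factor, had 118, 34 and 52 reads and was lower in both mutants, and Coro1a had 16, 13 and 167. Whether epithelial cells had any part in the keratin values was not tested.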

How the data were processed

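The authors deposited raw read counts per gene region for 6 ChIP-seq libraries, with no normalization. Per the file headers, counting began 2 kb upstream of a gene's start and stopped at its transcript end. The mm9 build and the tools Bowtie, DESeq and bedtools are named, per the submitters' processing notes; the sources used here do not give their roles or versions, nor the handling of duplicates and of reads fitting several places. Per the labels, reads of several runs were merged.

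Members and lists were chosen with earlier results of these data known. Size factors were medians of ratios within a mark, over 23029 (H3K79me2) and 20863 (H3K79me3) genes: 1.35, 0.972 and 0.764, and 0.982, 0.872 and 1.17, for WT, D544R and D546R. Log2 ratios used a prior count of 0.5, and intervals were exact conditional binomial (Clopper-Pearson, 95%), computed with Python 3.11.15 and scipy 1.17.1. Reads per fragment came from the share of 4591 autosomal regions under 5 kb with no read, which treats every such region as reachable. Named genes were Krt25, its 3 neighbours on each side, 10 well-known keratins, the 5 highest and 5 lowest called members per mark and mutant, the 5 with most counts per kb, the genes closest to Krt25 and up to 4 per list; others (such as Krt13, Krt32, Krt83, Krtap5-3, Krtap6-2) were chosen after their values were seen. Alternatives were total counts, edgeR 4.0.16 TMM factors, olfactory receptor genes as reference, other filters, no overlapping regions and summed counts. The script was tested on simulated data. No replicates exist, so no p-value is given.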

Additional observations from a re-analysis of the deposited data

Results flagged for a closer look

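In all, 5 members were called in opposite directions in the 2 marks under the same comparison. None of these differences was tested, since each group has 1 library. Of 19657 genes, 113 were opposite in D544R and 543 in D546R, and of 249 olfactory receptor genes, 9 and 23. Krt17 in D544R had a log2 ratio to WT of -1.26 in H3K79me2 (34 reads in WT, 10 in D544R) and 3.87 in H3K79me3 (2 and 32, counting interval 2.20 to 7.28). Krt10 in D546R had -3.00 in H3K79me2 (33 and 2 reads) and 2.27 in H3K79me3 (8 and 48). Krt76 in D546R had -4.23 in H3K79me2 (45 and 1) and 1.79 in H3K79me3 (14 and 59). Krt78 in D546R went the other way, with 1.11 in H3K79me2 (20 and 25) and -2.74 in H3K79me3 (42 and 7). Krtap1-5 in D546R had 1.89 in H3K79me2 (9 and 20) and -4.30 in H3K79me3 (59 and 3, counting interval -6.87 to -2.93). By the fragment interval none of the 5 genes was called in both marks.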

How the results depend on the processing

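Total counts, TMM factors and leaving out Krt85 (chosen after seeing the data) kept every count of called members within 1.5 times and every median's direction for the results on all members, except that the H3K79me3 median in D546R was 0.00 with total counts. The keratin-associated sum in D546R H3K79me3, whose alternatives were also chosen after seeing the data, ranged from 0.88 to 1.00. With the fragment interval the members called were 0 higher and 0 lower (H3K79me2, D544R), 0 and 1 (H3K79me2, D546R), 3 and 1 (H3K79me3, D544R), 5 and 2 (H3K79me3, D546R) and 1 higher in both mutants. A mean of at least 100 kept 1 member in H3K79me2, Krt85, and 5 in H3K79me3. The counts just listed were then 0, 0, 0, 0, 1, 1, 1, 1 and 1. The member higher in H3K79me3, in each mutant and in both, was Krt25, the gene on which the question was built. Krt25 reached that mean through its mutant counts (normalised 13.2 in WT, 112.4 in D544R and 181.4 in D546R), so this setting says nothing of sharing. In H3K79me2 the values became -0.06 (D546R) and -0.02 (D546R against D544R). They are the ratios of Krt85 alone, so this setting cannot check the H3K79me2 results. The H3K79me3 medians became -0.18 (D544R), -0.41 (D546R) and 0.13 (D546R against D544R, a reversed sign). With no filter on low counts, H3K79me2 gave 11 higher in D544R, 7 higher and 20 lower in D546R, and medians of -0.23 and -0.37. With olfactory receptor genes as reference, members lower in D546R H3K79me2 fell from 9 to 5, the D544R medians became 0.05 in H3K79me2 (reversed) and -0.19 in H3K79me3. Without overlapping regions 1 member was higher in D546R H3K79me2, and levels became 0.754 (D544R H3K79me2), 0.854 (WT H3K79me3) and 0.867 (D546R H3K79me3); in regions shorter than 15 kb they became 0.813 (D544R H3K79me3) and 0.873 (D546R H3K79me3). Summed counts gave 0.06 and -0.38 in H3K79me2 (D544R, D546R) and 0.03, 0.08 and 0.05 in H3K79me3 (D544R, D546R, D546R against D544R), against medians of -0.04, -0.56, -0.07, -0.07 and -0.08. The cause of these changes was not tested. No paired analysis was possible because each group has 1 library and no test was made. Depth limits single keratin-associated genes, whose median counts were 3 to 9.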
